A study of Mus musculus with 72 samples.

Results

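The genes described are those of the aminoacyl-tRNA synthetases and the scaffold proteins that bind several of them together. They were taken by name from the muscle and brain expression tables, as every gene whose symbol is that of a synthetase (a single amino acid letter followed by ars, with or without 1, 2 or 3) together with Eprs1, Farsa, Farsb, Aimp1, Aimp2 and Eef1e1. This gave 41 genes of 13543 in the muscle table and the same 41 of 15431 in the brain table, and all 41 passed the filter on low reads in both tissues. They were divided into 8 enzymes of the multisynthetase complex (among them Eprs1, Iars1 and Kars1), its 3 scaffold proteins, 13 other cytosolic enzymes and 17 mitochondrial enzymes. The glycine and lysine enzymes (Gars and Kars1) serve both compartments and were counted with the cytosol.

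Aminoacyl-tRNA synthetases join each amino acid to its own tRNA, the step on which the reading of the genetic code by the ribosome depends. Animal cells hold a set of these enzymes in the cytosol and a second set, encoded by other nuclear genes, in the mitochondria. Several cytosolic enzymes are bound together with the scaffold proteins encoded by Aimp1, Aimp2 and Eef1e1 in the multisynthetase complex, and Aimp2 is the scaffold on which that complex is assembled. The scaffold proteins are also known for roles outside translation, Aimp2 for instance in degradation of the transcriptional regulator FUBP1. Many cytosolic synthetase genes belong to the amino acid response, in which the transcription factor ATF4 raises genes for amino acid supply.

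Libraries came from 2-month-old mice that carried 1 disrupted copy of Klotho (KlHET, strain B6;129S5-Kl tm1Lex/Mmucd) or 2 intact copies (WT). Klotho, a membrane protein and circulating hormone, is known for its link to ageing. NMES mice had received neuromuscular electrical stimulation, in which a current makes the muscle contract, at 9 mA with 2 sets of 10 stimulations on each leg in 5 sessions, every other day, under isoflurane, and control mice had received isoflurane for 15 min. Muscle, the tibialis anterior grouped with the extensor digitorum longus, and brain were taken 24 h after the last session. Each tissue had 12 KlHET NMES, 12 KlHET control, 6 WT NMES and 6 WT control libraries, each from a separate mouse, and the same mice gave both tissues. The number of KlHET controls is that of the labels, from which the paper's own count differs. WT and KlHET mice carried identifiers of different series, so cohort and genotype cannot be told apart, and the labels give no sex. Control mice carried no electrical treatment but shared the anaesthesia, and all groups shared the age.

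Muscle libraries held 14.8 to 24.5 M reads and brain libraries 17.0 to 27.99 M. Values are CPM, reads per library scaled to a common total and adjusted with TMM factors, which correct for differences in RNA composition between libraries. All 7 fibre markers passed the filter in muscle, with summed levels of 68482 CPM or more in every library, and 6 neuron markers summed to 4073 CPM or more in every brain library. The second tissue is labelled brain, and prefrontal cortex in the study's methods, but markers of other regions varied widely within groups: choroid plexus markers summed to between 0.74 and 925 CPM in KlHET NMES, 1.73 and 1734 CPM in KlHET control, 2.63 and 98.4 CPM in WT NMES, and 2.01 and 70.7 CPM in WT control brains. The part of dissection in the brain results was not tested. Reads of the mitochondrial genome made up 6.44% to 33.8% of the muscle libraries, where KlHET NMES replicate 9 was the lowest, and 1.68% to 5.68% of the brain libraries, where WT control replicate 1 was the lowest. Both libraries stood apart in the synthetase genes, as described with the results.

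The family was chosen by the muscle values of Aimp2, which led the comparison of stimulated with control muscle, and for that reason those values are given as a description with no test. In muscle it reached 112.7 to 248.6 CPM in the 12 KlHET NMES libraries, with a median of 181 CPM, against 99.2 to 156.9 CPM with a median of 117 CPM in the 12 KlHET control libraries. The 6 WT NMES libraries held 202.0, 264.2, 267.8, 251.8, 417.3 and 230.5 CPM of Aimp2, against 106.2, 129.6, 154.5, 118.5, 115.3 and 140.4 CPM in the 6 WT control libraries. Every WT NMES library lay above every WT control library, whereas in KlHET mice 8 of 12 NMES libraries lay above the highest control and the ranges overlapped. Such a gap between WT groups was found for 0.955% of all genes tested and for no other member, and in KlHET muscle for 0.00740% of genes and 0 members. All the other KlHET NMES libraries lay within the range of KlHET controls, among them replicates 9 and 10 with 116.9 and 112.7 CPM.

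The mean of Aimp2 was 182 ± 44.7 CPM in KlHET NMES muscle and 120 ± 15.3 CPM in KlHET control muscle (SD, n = 12 each). It was 272 ± 75.2 CPM in WT NMES muscle and 127 ± 17.8 CPM in WT control muscle (SD, n = 6 each). On the log2(CPM + 0.5) scale the fitted difference of NMES against control was 0.57 in KlHET and 1.06 in WT mice, or 1.48-fold and 2.09-fold. WT NMES replicate 5 was the highest library, and without it the WT difference was 0.93. Between genotypes, Aimp2 differed by -0.58 in NMES muscle and by -0.08 in control muscle. The difference between the genotypes in the response to NMES was -0.50 and was given no test, and over all genes 0% passed adjusted p 0.05 for that interaction (limma with Benjamini-Hochberg adjustment).

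**Figure D1:**
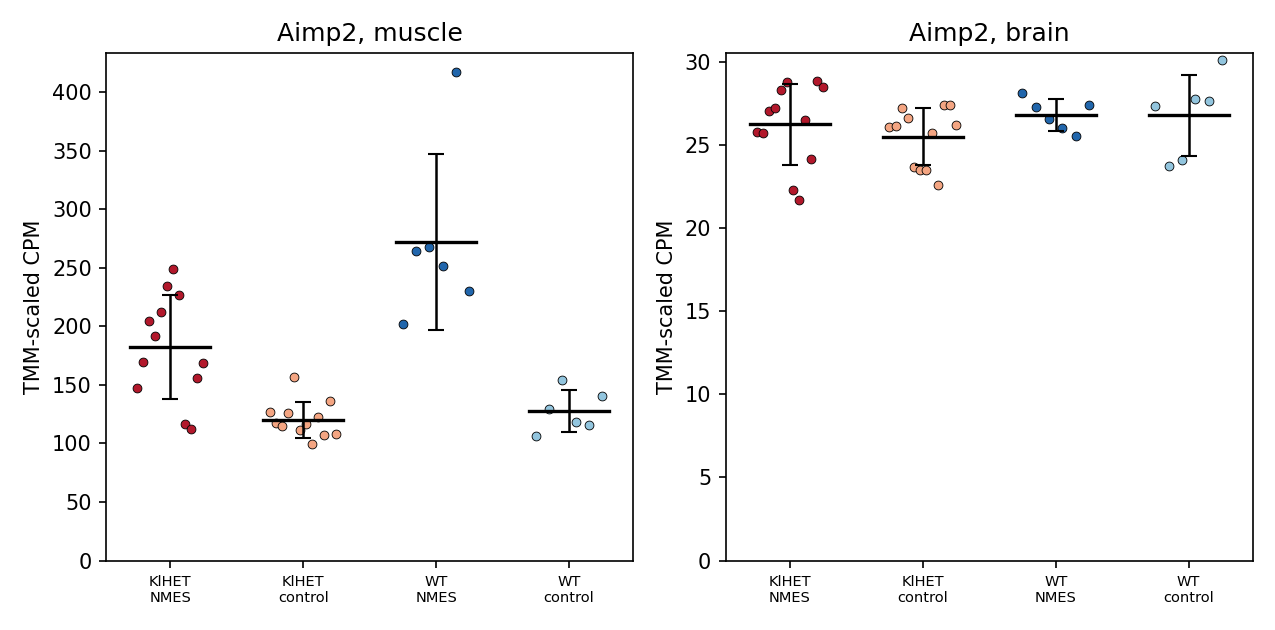
Aimp2 in each library (TMM-scaled CPM, y axes from 0 and scaled separately) of muscle (left) and brain (right), by group; lines and bars are the mean and SD of a group. The WT NMES muscles sit between 202.0 and 417.3 CPM, all above the WT control muscles, while the brain groups overlap between 21.7 and 30.1 CPM.

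In brain, Aimp2 stayed between 21.7 and 30.1 CPM in all 36 libraries. It averaged 26.2 ± 2.45 CPM in KlHET NMES and 25.5 ± 1.72 CPM in KlHET control brains (SD, n = 12 each), and 26.8 ± 0.96 CPM in WT NMES and 26.8 ± 2.42 CPM in WT control brains (SD, n = 6 each). NMES against control differed by 0.02 ± 0.04 over both genotypes (log2 difference ± SE, limma adjusted p = 1.00), and the group ranges overlapped in each of the 4 comparisons between brain groups.

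The other scaffold genes did not show the pattern of Aimp2. Aimp1, the scaffold that also yields the cytokine EMAPII, had 64.4 ± 11.1 CPM in KlHET NMES against 60.9 ± 3.33 CPM in KlHET control muscle, and 66.7 ± 8.17 CPM in WT NMES against 67.8 ± 10.8 CPM in WT control muscle (SD). Its difference of NMES against control was 0.02 ± 0.06 over both genotypes (log2 ± SE, limma adjusted p = 0.87). Eef1e1, which encodes AIMP3, a scaffold related to translation elongation factor 1, had 18.6 ± 3.60 CPM in KlHET NMES against 21.1 ± 2.53 CPM in KlHET control muscle, and 23.9 ± 3.78 CPM in WT NMES against 23.0 ± 3.04 CPM in WT control muscle. Its difference of NMES against control was -0.07 ± 0.08 over both genotypes (limma adjusted p = 0.63).

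Set against each other per kb of exon, the scaffolds were therefore in different proportions. Aimp2 stood at 2.76 ± 0.83 times Aimp1 in KlHET NMES and 1.86 ± 0.22 times in KlHET control muscle, and at 3.88 ± 1.09 times in WT NMES and 1.78 ± 0.17 times in WT control muscle (SD over libraries). In brain the same ratio was 0.88 ± 0.08, 0.86 ± 0.07, 0.87 ± 0.09 and 0.84 ± 0.18 in KlHET NMES, KlHET control, WT NMES and WT control libraries. Because Aimp2 enters these ratios, they describe the muscle change again and were not tested.

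Aimp2 lies on chromosome 5 (GRCm38, 143902704 to 143909839, minus strand). Of its exon bases 40.8% overlap exons of Eif2ak1, which encodes the haem-regulated kinase of the integrated stress response, on the opposite strand, and strandedness of the counting was not stated in the paper, labels or file headers. Reads of the 2 genes could therefore be shared. Eif2ak1 differed by 0.06 ± 0.09 between WT NMES and WT control muscle and by 0.19 ± 0.06 between KlHET NMES and KlHET control muscle (log2 ± SE, limma adjusted p = 0.86 and 0.14), and at 43.4 CPM it was the lower of the 2 genes in muscle. After subtracting group means, Pearson's r of Aimp2 with Eif2ak1 was -0.33 over the 36 muscle libraries and 0.24 over the 36 brain libraries. On the other side the start of Aimp2 is 162 bases from that of Pms2, a DNA mismatch repair gene transcribed the other way, so that both genes share most of a promoter. Pms2, at 5.15 CPM in muscle, differed by 0.30 ± 0.09 over both genotypes (limma adjusted p = 0.071), and r with Aimp2 was 0.30 in muscle and -0.37 in brain.

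The 250 bases before the Aimp2 start are shown because they also form part of the promoter of Pms2 (RefSeq sequence, GRCm38.p6, chr5:143909840-143910089, minus strand). Capitals mark CCAAT on either strand (ATTGG where it lies on the other strand), a motif chosen after the sequence was seen.
Aimp2: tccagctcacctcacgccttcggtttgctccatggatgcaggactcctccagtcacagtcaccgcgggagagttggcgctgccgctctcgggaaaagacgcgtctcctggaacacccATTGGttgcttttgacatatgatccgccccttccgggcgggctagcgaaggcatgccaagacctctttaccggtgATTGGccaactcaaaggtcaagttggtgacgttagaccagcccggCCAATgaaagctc

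A promoter window of 300 bases (250 before to 50 after the start) was matched for 31 of the 41 members among 27025 genes. A gene with several windows was counted once, by the window with the most matches, and so had more chances of a match. CCAAT was found in 16 of the 31 members, or 51.6%, against 41.1% of all genes. It had 3 or more copies in 3 members, against 3.88% of all genes. The composite site that ATF4 and C/EBP proteins bind was searched as TGATGNAAN on both strands. It was found in 5 of 31 members (Aars1, Gars, Iars1, Tars1 and Yars1), or 16.1%, against 4.50% of all genes. With the last letter fixed (TGATGNAAT) it was found in 3 members, 9.68% against 1.08% of all genes. Aimp2 has no match to TGATGNAAN in its window. These are matches of letters, and binding was not measured. The sites of 4 of these genes are shown because they are members with a match to the motif of the amino acid response, with the matched bases in capitals, each read along the strand of its gene in GRCm38.p6.
Gars, chr6:55037960-55037988: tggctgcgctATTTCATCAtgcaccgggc
Iars1, chr13:49682126-49682154: cactgtcagtATTGCATCAcctccagacg
Tars1, chr15:11399656-11399684, minus strand: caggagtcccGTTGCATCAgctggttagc
Yars1, chr4:129189896-129189924: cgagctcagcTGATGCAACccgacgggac

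The first question was whether the rest of the family moved with Aimp2 when muscle was stimulated. Of the other 40 members, 0 passed adjusted p 0.05 in NMES against control muscle over both genotypes (limma), where 1.78% of all genes did (1.27% higher and 0.511% lower). The smallest p-values belonged to Hars1, the histidine enzyme (0.17 ± 0.06, adjusted p = 0.13), Sars1, the serine enzyme (0.12 ± 0.04, adjusted p = 0.13), and Kars1, the lysine enzyme (0.17 ± 0.06, adjusted p = 0.15). At an unadjusted p under 0.05 the count was 5 of 40, against 17.5% of all genes, edgeR and DESeq2 called 0 and voom called 1 (Hars1). The differences were small and mostly positive: 34 of 40 lay above 0 with a median of 0.06, against a median of -0.01 over all genes, but with scaling to total counts 21 of 40 did, with a median of 0.00. Complex enzymes (7 of 8 above 0, median 0.05), other cytosolic enzymes (11 of 13, median 0.07) and mitochondrial enzymes (15 of 17, median 0.06) were alike in this.

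Within WT mice 0 of 40 passed (limma; 1 at an unadjusted p under 0.05, against 8.89% of all genes, and 0 by edgeR and DESeq2), where 0.0148% of all genes did, and 23 of 40 differences lay above 0 (6 of 40 with scaling to total counts). The members with the smallest p were Rars2, the mitochondrial arginine enzyme (0.25 ± 0.12, adjusted p = 0.55), Farsa, the catalytic subunit of the phenylalanine enzyme (0.14 ± 0.08, adjusted p = 0.64), and Mars2, the mitochondrial methionine enzyme (0.18 ± 0.12, adjusted p = 0.68). In the same muscles Aimp2 stood 2.09-fold higher.

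Within KlHET mice 0 of 40 passed in the main test, where 0.644% of all genes did (0.481% higher and 0.163% lower), although 15 were under an unadjusted p of 0.05, which 13.9% of all genes were. Of those 15, 5 were complex enzymes, 7 other cytosolic enzymes, 2 mitochondrial enzymes and 1 the scaffold Eef1e1. Differences lay above 0 for 33 of 40 members with a median of 0.11. Sars1 had 95.1 ± 8.44 CPM in KlHET NMES and 83.2 ± 5.18 CPM in KlHET control muscle (0.19 ± 0.05, adjusted p = 0.060), Hars1 32.3 ± 4.32 and 26.8 ± 2.38 CPM (0.26 ± 0.07, adjusted p = 0.068), and Eprs1, the bifunctional enzyme for glutamate and proline, 246 ± 37.5 and 203 ± 27.4 CPM (0.27 ± 0.08, adjusted p = 0.082). The ranges of both groups overlapped for each. DESeq2 called 4 of the 40 (Eprs1, Hars1, Nars1 and Sars1, all higher), edgeR 0, and leaving out single libraries gave 0 to 2. KlHET NMES replicate 9 carried the highest levels of the family: the median member stood 0.32 above its own mean over all muscle libraries (log2), against 0.18 or less in every other muscle library. Without it 32 of 40 differences lay above 0, with a median of 0.09.

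Whether the response of the 40 members differed between genotypes was asked with the interaction term, and 0 of 40 passed, as did 0% of all genes (limma; 3 of 40 at an unadjusted p under 0.05, against 3.52% of all genes, and 0 by edgeR and DESeq2). Eprs1 (0.36 ± 0.13), Nars1, the asparagine enzyme (0.21 ± 0.09), and Fars2, the mitochondrial phenylalanine enzyme (0.24 ± 0.11), had the smallest p, each with an adjusted p of 1.00.

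**Figure D2:**
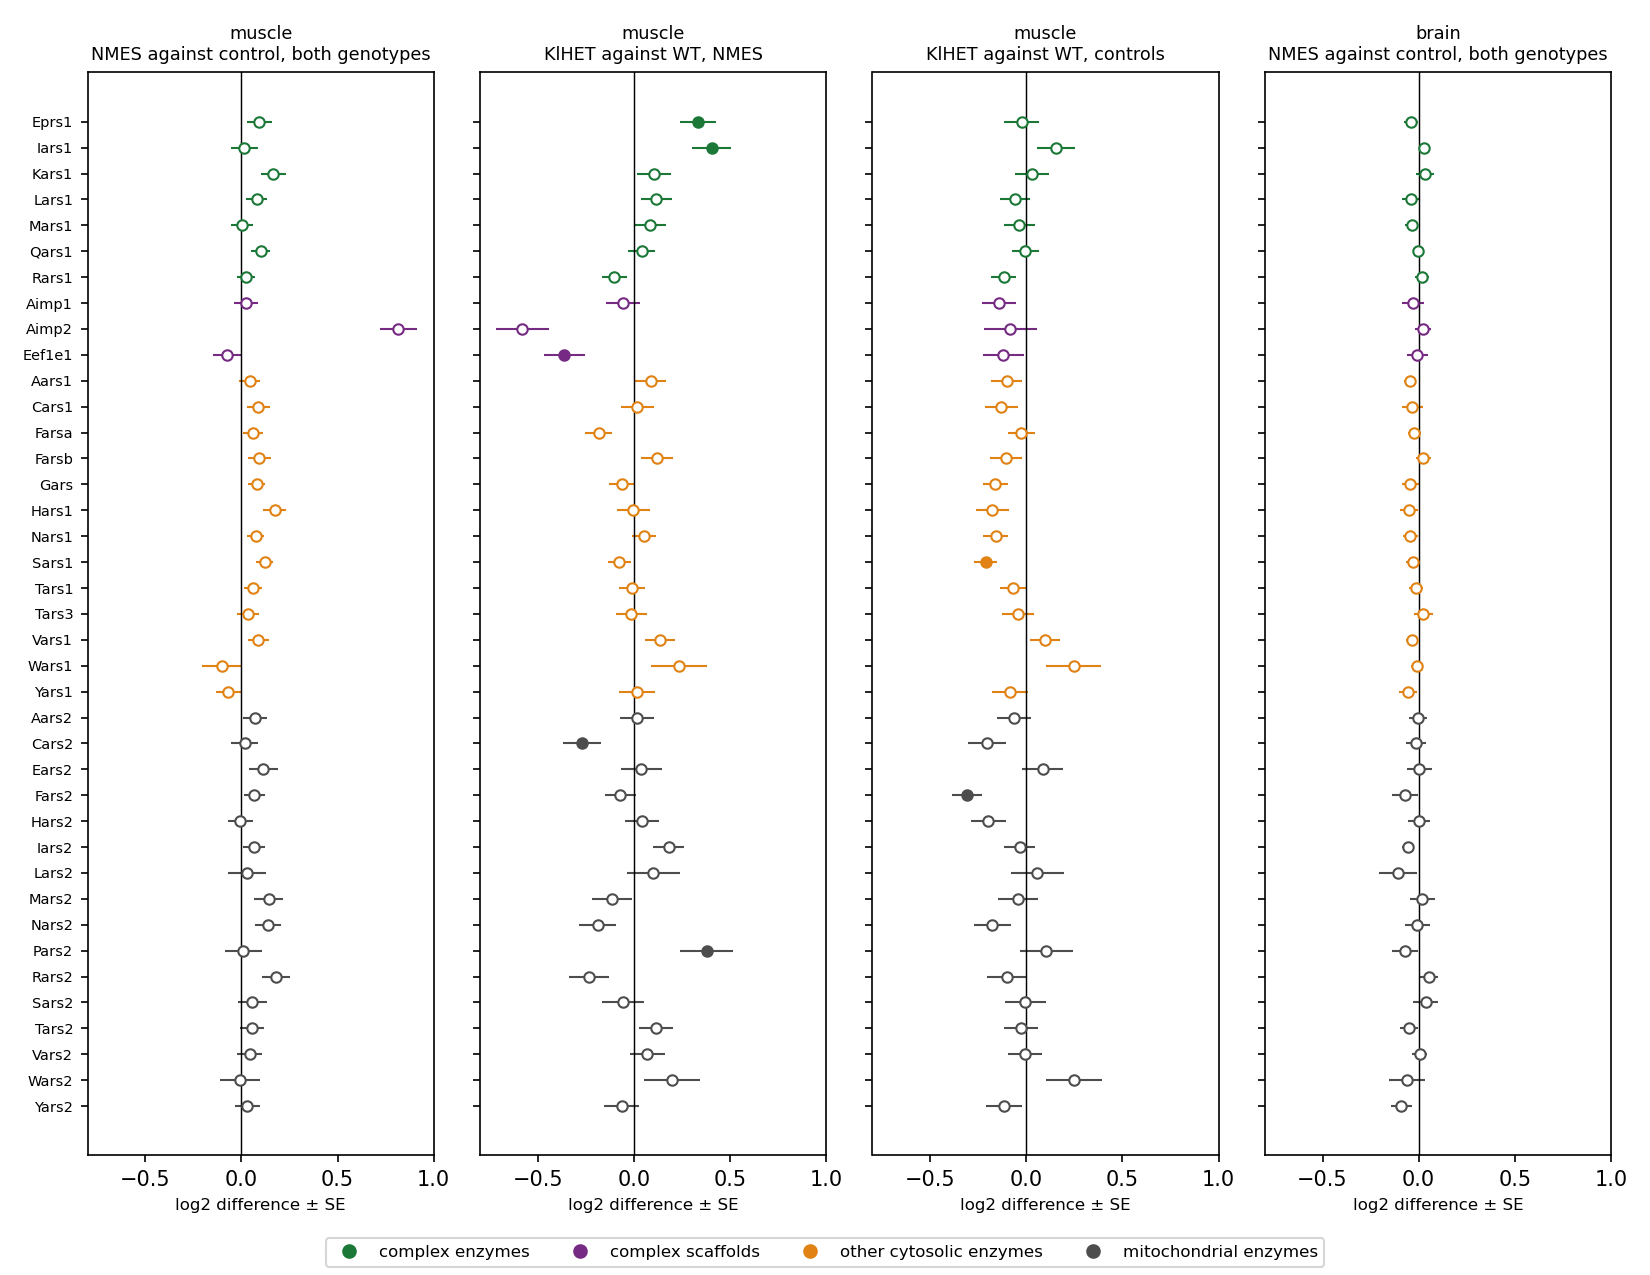
Log2 difference ± SE of 39 of the 41 genes in 4 comparisons (panels), coloured by class; filled points passed adjusted p 0.05 in limma, and Aimp2 in muscle is drawn open because it was not tested. Aimp2 stands at 0.82 in the first panel while the other genes drawn lie between -0.10 and 0.18; in the brain panel no gene drawn is past 0.11 in either direction.

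Between genotypes, 2 of the 40 members tested were lower and 0 higher in KlHET than in WT control muscle, which is 5% against 6.0% of all genes (2.59% higher and 3.41% lower), a share near the background. Fars2 fell to 22.4 ± 2.40 CPM in KlHET control muscle (lowest 18.9, median 22.3, highest 26.1; SD, n = 12), against 26.3, 23.4, 27.7, 28.7, 32.0 and 28.9 CPM in WT control muscle. All 12 KlHET values lay below the WT mean but the ranges overlapped through the lowest WT library (-0.31 ± 0.08, limma adjusted p = 0.017). Sars1 fell to 83.2 ± 5.18 CPM (lowest 70.9, median 83.8, highest 90.3; SD, n = 12) in KlHET control muscle, against 87.0, 95.1, 94.0, 102.0, 100.9 and 99.8 CPM in WT control muscle, and again 12 of 12 lay below the WT mean while 1 WT library overlapped (-0.21 ± 0.06, limma adjusted p = 0.033). Both calls were lost with scaling to total counts (adjusted p = 0.097 for Fars2 and 0.25 for Sars1) and without WT control replicate 3 (0.059 and 0.074). That of Sars1 was also lost without WT control replicates 4, 5 or 6 or KlHET control replicate 3 (0.077, 0.060, 0.073 and 0.052).

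Most members were slightly lower in KlHET control muscle, 31 of 40 with a median of -0.06 against 0.02 over all genes, but with scaling to total counts 18 of 40 were. Of the other cytosolic enzymes 11 of 13 lay below 0 (median -0.10) and of the complex enzymes 6 of 8 (median -0.03). Summed over the 13 other cytosolic enzymes, KlHET control muscle held 673 ± 26.9 CPM (616 to 713; SD, n = 12) and WT control muscle 721 ± 33.2 CPM (677 to 761.9; SD, n = 6). The same sum was 738 ± 57.1 CPM in KlHET NMES muscle (n = 12) and 721 ± 30.1 CPM in WT NMES muscle (n = 6), so KlHET NMES muscle lay at the level of both WT groups. In these whole-tissue samples fewer cells of a type and less RNA per cell cannot be told apart.

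In stimulated muscle, 3 of the 40 members were higher and 2 lower in KlHET than in WT mice, 12.5% against 19.1% of all genes (9.26% higher and 9.87% lower). At an unadjusted p under 0.05 there were 9 of 40, against 33.5% of all genes. Iars1 and Eprs1 of the multisynthetase complex rose, as did the mitochondrial proline enzyme Pars2, while the scaffold Eef1e1 and the mitochondrial cysteine enzyme Cars2 fell. The ranges of both groups overlapped for each of these genes, as they did for all 41 members. Ranges that did not overlap were rare in this comparison, at 1.03% of all genes tested.

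Iars1, the isoleucine enzyme, had 59.7 ± 10.9 CPM (lowest 43.9, median 57.3, highest 80.9; SD, n = 12) in KlHET NMES muscle, against 41.8, 50.7, 47.7, 40.99, 37.9 and 48.2 CPM in WT NMES muscle. In 11 of 12 KlHET libraries it lay above the WT mean (0.41 ± 0.10, limma adjusted p = 0.0052). Eprs1 had 246 ± 37.5 CPM (lowest 182, median 240, highest 313; SD, n = 12) in KlHET NMES muscle, against 174, 224, 214, 189, 166 and 197 CPM in WT NMES muscle, and also lay above the WT mean in 11 of 12 (0.33 ± 0.09, limma adjusted p = 0.012). With the share of mitochondrial reads as a covariate the difference of Eprs1 was 0.20 (adjusted p = 0.10). Iars1 passed under every alternative setting and without any single library.

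Pars2 was one of the lowest members, with 3.66 ± 0.79 CPM (lowest 2.54, median 3.73, highest 4.61; SD, n = 12) in KlHET NMES muscle, against 2.17, 2.35, 2.90, 3.32, 3.38 and 2.03 CPM in WT NMES muscle (0.38 ± 0.14, limma adjusted p = 0.048). Eef1e1 fell to 18.6 ± 3.60 CPM (lowest 12.0, median 18.04, highest 25.0; SD, n = 12) in KlHET NMES muscle, against 18.8, 29.2, 27.1, 24.0, 22.0 and 22.0 CPM in WT NMES muscle (-0.36 ± 0.11, limma adjusted p = 0.017), and 10 of 12 KlHET libraries lay below the WT mean. Cars2 fell to 15.1 ± 2.64 CPM (lowest 9.04, median 15.4, highest 18.7; SD, n = 12) in KlHET NMES muscle, against 15.96, 20.9, 19.2, 18.3, 16.4 and 18.1 CPM in WT NMES muscle (-0.27 ± 0.10, limma adjusted p = 0.047). Of the exon bases of Cars2 22.2% overlap Naxd on the opposite strand. Eef1e1 lost its call without WT NMES replicates 2 or 3 (adjusted p = 0.058 and 0.052), with scaling to total counts (0.18) and in the fit on the compared groups alone (0.059). Pars2 and Cars2 lay so near the threshold that leaving out single libraries of any group ended their calls, as did edgeR (0.050 and 0.053) and the fit on the compared groups alone (0.086 and 0.13). The call of Pars2 was also lost with the mitochondrial share as a covariate (0.14) and that of Cars2 with scaling to total counts (0.36).

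**Figure D3:**
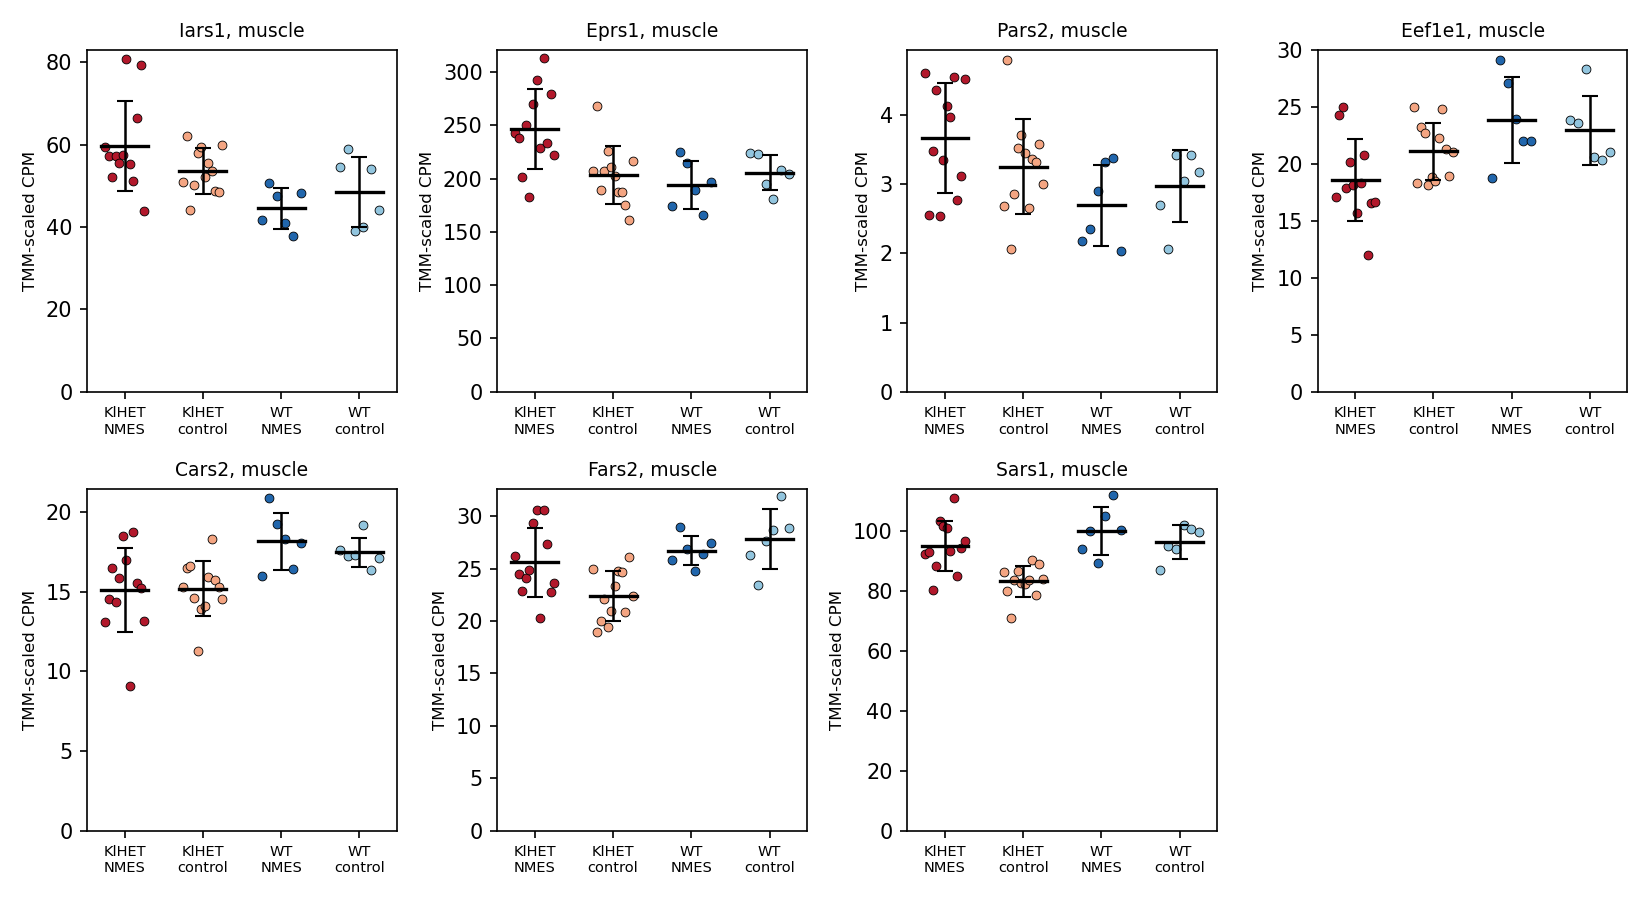
The 7 members that passed adjusted p 0.05 between genotypes in muscle, by library and group (TMM-scaled CPM, y axes from 0); lines and bars are the mean and SD. Iars1, Eprs1 and Pars2 are higher and Eef1e1 and Cars2 lower in KlHET NMES than in WT NMES muscle, and Fars2 and Sars1 are lower in KlHET control than in WT control muscle, all with overlapping ranges.

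Of the 40 members 23 lay above 0 in KlHET against WT NMES muscle (median 0.03); 34 did with scaling to total counts, 18 without KlHET NMES replicate 9 and 14 with the mitochondrial share as a covariate. Of the 8 complex enzymes 6 were above 0 in KlHET against WT (median 0.10), and the sum of the class was 717 ± 69.1 CPM in KlHET NMES (n = 12) and 646 ± 53.4 CPM in WT NMES muscle (SD, n = 6). The scaffold genes Eef1e1 and Aimp1 were below 0, at -0.36 and -0.06. Aimp2, whose muscle values chose the family, stood at -0.58, given as a description and not counted with them. The sum of the complex enzymes was 647 ± 48.0 CPM in KlHET control (n = 12) and 656 ± 42.0 CPM in WT control muscle (SD, n = 6). Mitochondrial enzymes other than Lars2 summed to 281 ± 26.1 CPM in KlHET NMES and 274 ± 17.2 CPM in WT NMES muscle, with 9 of 16 above 0.

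Markers of other cells were measured in the same libraries. In KlHET against WT NMES muscle 19.1% of all genes passed. The share that passed was 11.1% to 16.7% in the endothelial, fibroblast, adipocyte and macrophage lists, which is 1 gene in each. It was 42.9% in the fibre list. Lists of 6 to 9 genes are too short to set such shares above or below the background. Of 8 endothelial markers 1, Vwf, was higher in KlHET NMES muscle (0.87 ± 0.17, limma adjusted p = 0.00091), and the 8 summed to 338 to 828 CPM in KlHET NMES and 324 to 601 CPM in WT NMES muscle. Of 6 fibroblast markers 1 was higher (Col1a2), with sums of 428 to 1892 CPM in KlHET NMES and 519 to 897 CPM in WT NMES muscle. Of 9 adipocyte markers 1 was higher (Plin1), with sums of 563 to 888 and 483 to 867 CPM, and of 7 macrophage markers tested 1 was higher (Mrc1), with sums of 19.5 to 124 and 23.6 to 37.0 CPM. Of 7 fibre markers 3 were lower (Mylpf, Pvalb and Tnnt3), with sums of 73089 to 127666 and 78703 to 100684 CPM. Satellite cell markers summed to 22.2 to 43.3 CPM in KlHET NMES and 32.4 to 51.3 CPM in WT NMES muscle. Markers of slow fibres summed to 111 to 1496 CPM and 88.3 to 428 CPM. These last lists are given as sums only. In control muscle Vwf was also higher in KlHET mice (0.69 ± 0.17, limma adjusted p = 0.014; endothelial sums 461 to 1051 CPM in KlHET and 457 to 736 CPM in WT), and 2 of 7 fibre markers, Mylpf and Pvalb, were lower (sums 68482 to 95771 CPM in KlHET and 82086 to 93225 CPM in WT). Among all genes 6.0% passed between genotypes in control muscle. With NMES over both genotypes, where 1.78% of all genes passed, 1 of 7 fibre markers, Mylpf, was higher (0.21 ± 0.06, limma adjusted p = 0.042). In the endothelial, fibroblast, adipocyte and macrophage lists 0 markers passed with NMES over both genotypes. There 17.5% of all genes were under an unadjusted p of 0.05 in limma. All 8 endothelial markers lay below 0 in that comparison (median -0.33, 5 of 8 at an unadjusted p under 0.05, smallest adjusted p = 0.086), as did all 6 fibroblast markers (median -0.47, 5 of 6 at an unadjusted p under 0.05, smallest adjusted p = 0.13), beside the median of 0.06 of the synthetase genes. Endothelial markers summed to 338 to 828 CPM in KlHET NMES against 461 to 1051 CPM in KlHET control muscle, and to 324 to 601 CPM in WT NMES against 457 to 736 CPM in WT control muscle. Fibroblast markers summed to 428 to 1892 CPM in KlHET NMES against 723 to 1523 CPM in KlHET control muscle, and to 519 to 897 CPM in WT NMES against 764 to 1479 CPM in WT control muscle. The part of these cells in the differences of the synthetase genes was not tested.

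The genes around aminoacylation were then examined. Of 29 amino acid response genes tested in muscle, 1 was higher and 0 lower in NMES against control over both genotypes. Among all genes 1.27% were higher and 0.511% lower. The 1 gene was Slc38a2, a neutral amino acid transporter (0.34 ± 0.09, limma adjusted p = 0.038). Atf4 itself differed by -0.07 ± 0.04 (adjusted p = 0.43), and the median of the list was -0.01, as over all genes. Between genotypes 3 were higher and 2 lower in both NMES and control muscle, or 17.2% of the list, against 19.1% of all genes in NMES muscle and 6.0% in control muscle. The share was thus below that of all genes in NMES muscle and above it in control muscle, where the genes are not named here. In KlHET NMES muscle the 3 higher genes were Asns, the asparagine synthetase (0.95 ± 0.19, adjusted p = 0.0011), and the amino acid transporters Slc7a1 (0.54 ± 0.17, adjusted p = 0.024) and Slc7a5 (0.60 ± 0.21, adjusted p = 0.037), and the lower ones Ddit3 (-0.63 ± 0.17, adjusted p = 0.0087) and Cebpg (-0.28 ± 0.09, adjusted p = 0.028). The exons of Ddit3, a stress-induced transcription factor, overlap 2.29% of the exon bases of Mars1 on the opposite strand. The comparisons between genotypes and those of NMES use the same groups and are not independent.

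Of 24 genes for partners of aminoacylation and tRNA quality control, Nsun2, a tRNA methyltransferase, rose in NMES muscle over both genotypes (0.27 ± 0.05, limma adjusted p = 0.0056) and within KlHET (0.36 ± 0.06, adjusted p = 0.0016), and 0 fell in either. Among all genes 1.78% passed over both genotypes and 0.644% within KlHET. In KlHET against WT NMES muscle 2 rose and 5 fell, or 29.2% of the list against 19.1% of all genes. The larger changes by p were those of Prorsd1, a prolyl-tRNA editing homologue (-0.40 ± 0.08, adjusted p = 0.00088), Pstk, a kinase of selenocysteine tRNA (-0.39 ± 0.10, adjusted p = 0.0052), Elac2, which trims the ends of tRNA precursors (0.36 ± 0.09, adjusted p = 0.0061), and Dtd2, a deacylase (-0.39 ± 0.10, adjusted p = 0.0073). Among 9 genes tested from a list of reported AIMP2 partners and neighbours, Fubp1 was higher (0.26 ± 0.07, adjusted p = 0.045) and Smurf2, a ubiquitin ligase, lower (-0.23 ± 0.06, adjusted p = 0.032) in NMES muscle over both genotypes, 2 of 9 against 1.78% of all genes.

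The members were also compared with Aimp2 by the spread between libraries within groups. After subtracting group means of log2 CPM, Pearson's r of Aimp2 with the other 40 members over the 36 muscle libraries ran from -0.30 to 0.50 with a median of -0.03, and over the 36 brain libraries from -0.30 to 0.48 with a median of 0.19. The muscle genes most like Aimp2 were Ppie (r = 0.73), Oser1 (0.73), Pgk1 (0.72), Tpra1 (0.72), Pfdn1 (0.70), Pgam2 (0.70), Pfn1 (0.70) and Cd55 (0.70), of which Pgk1 and Pgam2 encode glycolytic enzymes. These values describe 36 libraries that share depth and composition effects, and carry no test.

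Per kb of exon, levels of the family were ordered differently in the 2 tissues, whose tables were normalized separately, so the values are set side by side without a test. Mitochondrial reads, which count in the totals, made up a median of 26.5% of muscle and 4.27% of brain libraries. Counts of genes higher or lower in muscle therefore depend on that share. Aimp2 stood at 140 CPM per kb in muscle and 21.9 CPM per kb in brain, Aimp1 at 57.0 and 25.6, and Eef1e1 at 8.24 and 9.72. The complex enzymes had a median of 22.9 CPM per kb in muscle and 20.9 CPM per kb in brain, with 5 of 8 higher in muscle. The other cytosolic enzymes had a median of 15.1 CPM per kb in muscle and 41.9 CPM per kb in brain, and 10 of 13 had the lower CPM in muscle. Among these, Nars1 stood at 36.7 and 85.7 CPM per kb, Gars at 25.3 and 65.4, and Wars1, the tryptophan enzyme, at 12.9 and 45.6. The mitochondrial enzymes other than Lars2 were the lowest class in both tissues, with medians of 5.35 CPM per kb in muscle and 5.91 CPM per kb in brain. Mars2 had the lowest values per kb, 0.73 and 0.95, over a GENCODE exon length of 11.3 kb. That length exceeds the RefSeq span of the gene (chr1:55237177-55240058), so its rank depends on the length used. In CPM without division by length, Pars2 was lower, at 3.25 in muscle and 9.20 in brain, against 8.23 and 10.7 for Mars2.

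**Figure D4:**
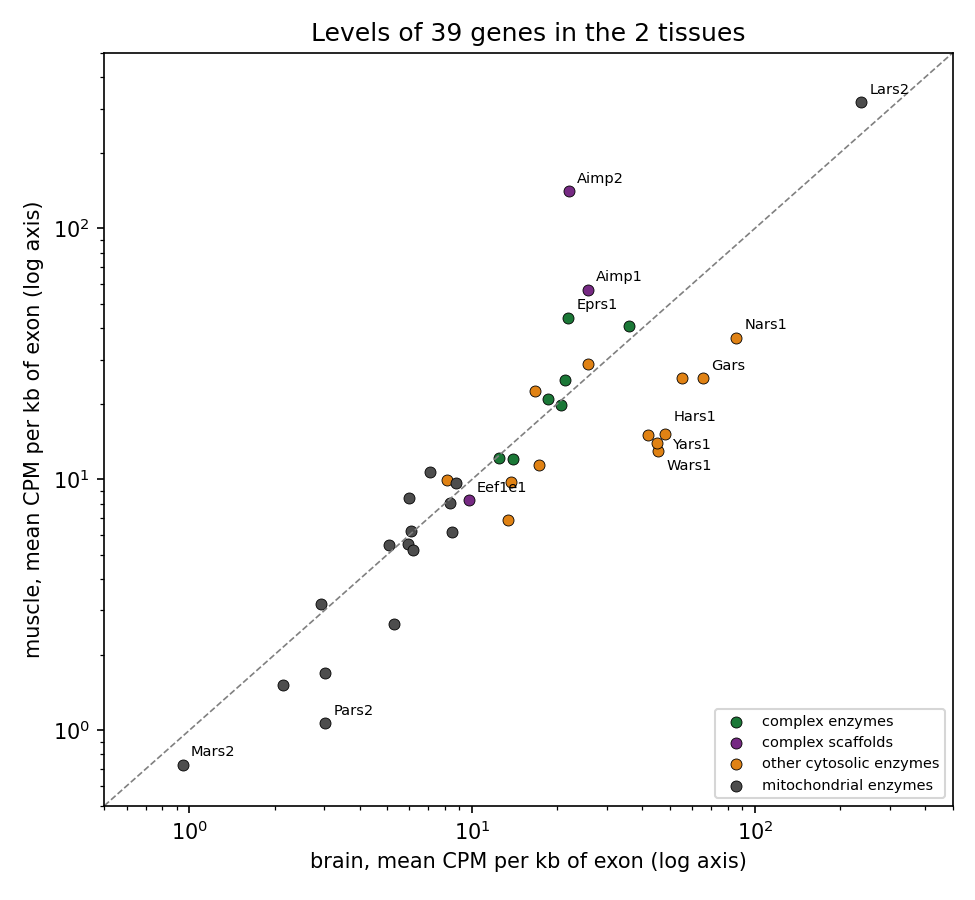
Mean CPM per kb of exon of 39 of the 41 genes in muscle (y axis) and brain (x axis), both log axes, coloured by class; the dashed line marks equal values. The other cytosolic enzymes lie mostly below the line and Aimp2 lies farthest above it, at 140 CPM per kb in muscle and 21.9 in brain.

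Lars2, the mitochondrial leucine enzyme, was listed at 1242 CPM in muscle and 924 CPM in brain, far above every other member. After subtracting group means its values followed those listed for the ribosomal RNA precursor Rn45s, with Pearson's r of 0.88 over 36 muscle and 0.86 over 36 brain libraries. Values of Lars2 are therefore uncertain as a measure of its own mRNA, and the part of ribosomal RNA in them was not tested. Other members whose exons overlap a gene on the opposite strand include Iars2 (32.2% of exon bases), Farsb (11.3%) and Hars1 (9.80%, with Hars2), and those of Aars1 overlap Exosc6 on the same strand (23.1%).

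In brain none of the 41 members passed adjusted p 0.05 in any of the 6 comparisons in limma, edgeR or DESeq2. Of all genes 0% passed for the 3 NMES comparisons and the interaction. For KlHET against WT, 0.0714% passed in controls (0.0519% higher and 0.0195% lower) and 0.0974% in NMES brains (0.0584% higher and 0.0390% lower). At an unadjusted p under 0.05 there were 0, 0, 2, 1, 5 and 3 members (NMES against control over both genotypes, in WT and in KlHET, the interaction, and KlHET against WT in controls and in NMES brains), against 1.99%, 2.73%, 2.04%, 2.95%, 10.4% and 4.27% of all genes. For NMES against control over both genotypes the smallest p belonged to Iars2 (-0.05 ± 0.03), Yars2 (-0.09 ± 0.05) and Aars1 (-0.04 ± 0.03), each with an adjusted p of 1.00. In WT mice they were Yars2 (-0.16 ± 0.09), Aars1 (-0.09 ± 0.05) and Farsa (-0.09 ± 0.05), and in KlHET mice Iars1 (0.09 ± 0.03), Iars2 (-0.09 ± 0.04) and Aars2 (0.08 ± 0.05), with adjusted p of 1.00 throughout.

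For the interaction in brain, Iars1 (0.13 ± 0.06), Tars1 (0.15 ± 0.07) and Farsa (0.13 ± 0.07) came first, with an adjusted p of 1.00. Between genotypes in control brains, Wars2, the mitochondrial tryptophan enzyme (0.37 ± 0.13, limma adjusted p = 0.37), Aars1 (-0.12 ± 0.04, adjusted p = 0.37) and Gars (-0.16 ± 0.06, adjusted p = 0.40) came first. Between genotypes after NMES they were Iars2 (-0.10 ± 0.04), Wars2 (0.30 ± 0.13) and Iars1 (0.09 ± 0.04), with an adjusted p of 1.00. The lists of amino acid response genes (30 tested), partners of aminoacylation (24) and AIMP2 partners (9) also had 0 genes past the threshold in the 6 brain comparisons in limma.

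A single brain library set the direction of much of the family. In WT control replicate 1, 12 of the 13 other cytosolic enzymes were higher than in all 5 other WT control brains, and 10 of these 12 were higher than in all 35 other brain libraries. Over all genes 31.3% were above and 28.1% below the 5 other WT controls, and 15.2% were above the 35 other libraries. This library thus stood apart in many genes outside the family, in both directions. Yars1, the tyrosine enzyme, had 200 CPM in that library against 128 to 138 CPM in the 5 others, Gars 230 CPM against 154 to 163 CPM and Nars1 340 CPM against 245 to 255 CPM. Wars1 went the other way, with 108 CPM against 131 to 138 CPM. Of the 17 mitochondrial enzymes 10 were above and 3 below the 5 others. Of the 8 complex enzymes 3 were above, a share near that of all genes, and 1, Kars1, was below. Aimp1 had 47.5 CPM against 24.6 to 30.3 CPM, while Aimp2, at 27.3 CPM, lay within the range of the others. Of 30 amino acid response genes 7 were above and 6 below.

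This library also had the lowest mitochondrial share among brain libraries. With it, 30 of 40 members other than Aimp2 lay below 0 in NMES against control brains over both genotypes (median -0.03); without it, 21 of 40 did (median 0.00). For KlHET against WT control brains 29 of 40 lay below 0 with it (median -0.06) and 24 of 40 without it (median -0.01). The part of RNA quality in this library was not tested, and the count of members passing the threshold in brain was 0 with and without it.

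**Figure D5:**
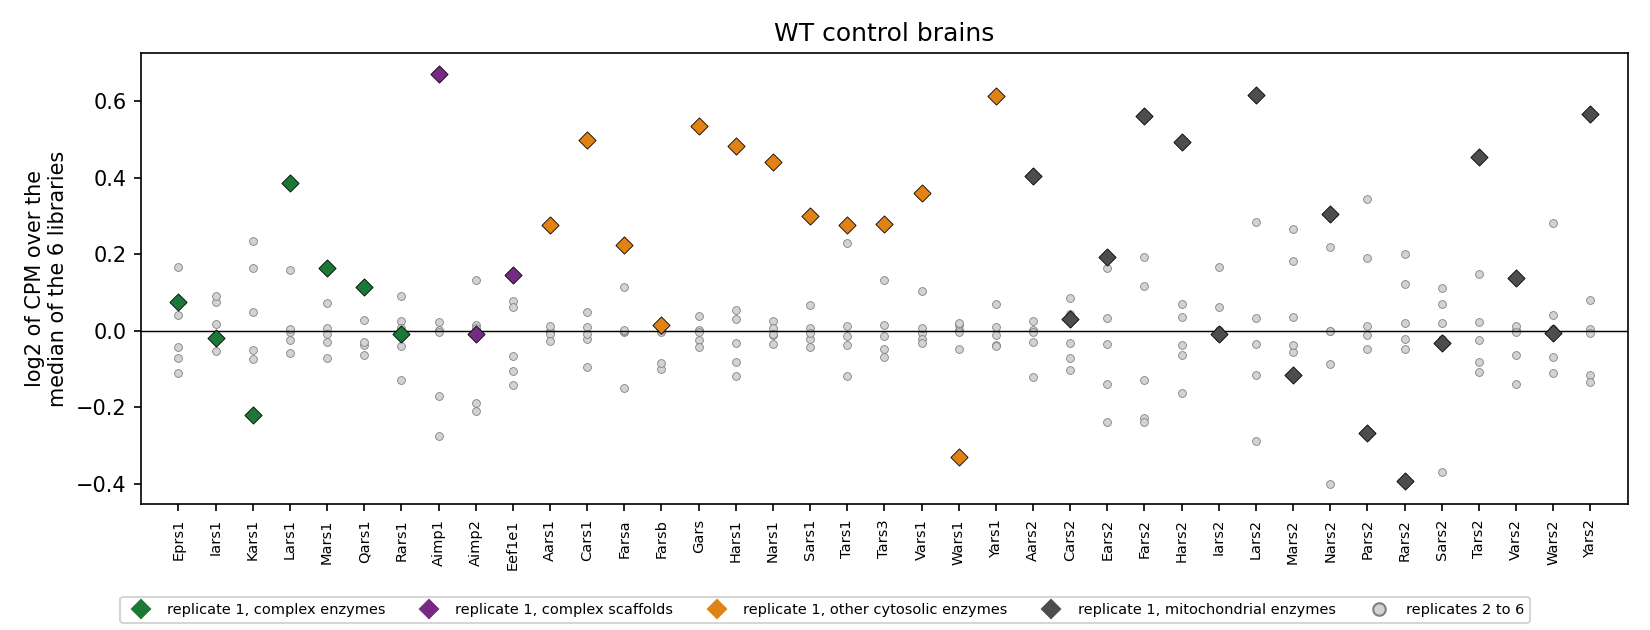
Values of 39 of the 41 genes in the 6 WT control brains, as log2 of CPM over the median of the 6 libraries (y axis); diamonds are replicate 1, coloured by class, and grey points replicates 2 to 6. Replicate 1 lies above the other libraries for 12 of 13 other cytosolic enzymes and below them for Wars1.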

How the data were processed

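Muscle and brain total RNA libraries of WT and KlHET mice were sequenced with paired reads. The authors aligned reads to mm10 with Rsubread 2.16.1, annotated genes with org.Mm.eg.db 3.19.1 and processed counts with edgeR 4.0.16, and deposited 1 table of CPM values per tissue, together with a log2 CPM average of the authors that is tied to no sample and was not used here. Every value was a whole multiple of 1 read (100% within a tolerance of 1e-06), so whole reads and depths were recovered, 14.8 to 24.5 M per muscle and 17.0 to 27.99 M per brain library, which limits precision most for members of few CPM.

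From these, limma 3.58.1 (R 4.3.3; trend, robust, 2-sided) was fitted on log2(TMM-scaled CPM + 0.5), which understates changes of low genes, to all 36 libraries of a tissue with 4 group means, with Benjamini-Hochberg adjustment across 13505 muscle or 15400 brain genes past edgeR's filter on low reads (threshold 0.05). Counts of libraries in a direction are set against the mean of the other group. Named were Aimp2, members past the threshold, and otherwise the 3 members with the smallest p, with a few genes of each list. Aimp2's pattern was compared by Pearson's r. Members and lists were chosen with earlier results of these data known. Exon lengths are those of GENCODE vM21 basic transcripts (GRCm38), and promoters are RefSeq's (GRCm38.p6). Alternatives were pseudocounts of 0.1 and 2, total-count scaling, RLE size factors, no filter, edgeR's quasi-likelihood test and DESeq2 1.42.0 on recovered reads, a fit on the compared groups alone, voom weighting libraries by quality, Xist or the mitochondrial share as a covariate, each library left out in turn, and a motif with its last letter fixed. The fit was tested on simulated data. Figures were drawn with matplotlib 3.10.9 in Python 3.11.15. Values and sequences of a few items are not reported here, and figures leave out 2 members; counts cover all members.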

Additional observations from a re-analysis of the deposited data

Results flagged for a closer look

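Within groups of 6 libraries, 21 of 164 groups held a library far from the other 5 by Dixon's gap criterion, which chance alone meets in about 1 in 20 groups. These groups are 41 genes read in the same libraries and are not independent, so that rate gives no test of the count. KlHET groups, of 12 libraries each, were not examined in this way. In brain, 13 of the 21 flagged groups were WT control replicate 1. It was the highest for Aars1 (302 CPM), Aars2 (38.1 CPM), Aimp1 (47.5 CPM), Cars1 (63.1 CPM), Gars (230 CPM), Hars1 (132 CPM), Hars2 (28.7 CPM), Nars1 (340 CPM), Sars1 (250.2 CPM), Vars1 (70.4 CPM), Yars1 (200.4 CPM) and Yars2 (24.0 CPM), and the lowest for Wars1 (108 CPM). WT control replicate 4 was the lowest for Sars2 in brain (8.81 CPM against 11.1 to 12.3 CPM), and WT NMES replicate 1 was the highest for Iars2 (67.7 CPM against 56.9 to 59.5 CPM).

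In muscle, WT NMES replicate 5, the library with the highest Aimp2, was the highest for Cars1 (37.2 CPM against 29.9 to 32.3 CPM), and WT NMES replicate 2 was the highest for Yars2 (23.2 CPM against 16.2 to 17.5 CPM). WT control replicate 4 was the lowest for Farsa (17.1 CPM) and Qars1 (47.8 CPM), and WT control replicate 3 was the highest for Lars1 (55.8 CPM) and Nars1 (129.7 CPM).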

How the results depend on the processing

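In muscle, the count of the 40 members other than Aimp2 past adjusted p 0.05 was 0 for NMES against control over both genotypes, and 1 with voom and library quality weights. Within KlHET it was 0, and 4 with DESeq2, 1 with voom and 1 with Xist as a covariate. Between genotypes in controls it was 2, and 0 with total-count scaling and 3 with the mitochondrial share as a covariate. Between genotypes after NMES it was 5, and 3 with edgeR's quasi-likelihood test, 2 with only the compared groups, 6 with the mitochondrial share as a covariate and 7 each with voom and with total-count scaling. Total-count scaling moved the median of all genes in that comparison to 0.14, so 34 of 40 members lay above 0, with a median of 0.16, close to that shift. Leaving out single libraries gave 0 to 1 members over both genotypes (1, Hars1, without WT control replicate 3) and 0 to 2 within KlHET (2 without KlHET control replicate 9 or KlHET NMES replicate 10, 1 without WT control replicate 3, KlHET control replicate 2 or KlHET NMES replicates 3 or 5). It gave 0 to 2 between genotypes in controls (0 without WT control replicate 3, 1 without WT control replicates 4, 5 or 6 or KlHET control replicate 3). It gave 2 to 8 between genotypes after NMES: 8 without KlHET NMES replicate 5, 2 without WT NMES replicate 3, and 3 without WT control replicates 1, 5 or 6, WT NMES replicates 2 or 6, KlHET control replicates 6, 11 or 12, or KlHET NMES replicates 1, 4 or 12. Without 1 library, Cars2 passed in 16 of 36 fits (adjusted p = 0.026 to 0.12; kept without WT control replicates 3 or 4, WT NMES replicate 1, KlHET control replicates 1 to 5, 7, 9 or 10, or KlHET NMES replicates 3, 5, 6, 7 or 9). Pars2 passed in 11 of 36 (0.023 to 0.13; kept without WT control replicate 2, WT NMES replicates 4 or 5, KlHET control replicates 2, 3 or 8, or KlHET NMES replicates 2, 5, 6, 10 or 11). Counts within WT, for the interaction and in all brain comparisons were 0 under every alternative. No paired analysis was possible between groups, because each group holds different mice and replicate numbers only name libraries; both tissues of a mouse were not compared by pair. Depth limits most the members of few CPM, such as Pars2. The causes of these shifts were not tested.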
